A study of Mus musculus with 9 samples.

Results

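The 35 genes described here encode the machinery of fatty acid oxidation and ketone body metabolism, together with the nuclear receptors that govern it and the transporters that bring its short-chain fuel into the colonocyte. They are a list of gene names chosen by function, with earlier results of these data known, and are 35 of the 17305 named genes on the array. Each had at least 1 probe that was well above background on all 9 arrays, so all 35 passed the filter on dim probes and none entered through 1 group alone.

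Fatty acids enter the cell through carriers, are activated to acyl-CoA, cross the mitochondrial membranes as carnitine esters and are then shortened by repeated rounds of dehydrogenation, hydration, dehydrogenation and thiolysis. The electrons pass through the electron transfer flavoprotein to the respiratory chain. The colonocyte is known for drawing much of its energy from butyrate, a product of bacterial fermentation, which enters this route as a short-chain acyl-CoA, and for making ketone bodies from it. PPAR alpha and PPAR gamma are nuclear receptors that bind fatty acids and control many genes of the route.

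The samples were total RNA of normal colonic mucosa from ICR mice, an outbred stock, and every group had received the colon carcinogen 1,2-dimethylhydrazine (DMH) under the skin at 20 mg/kg weekly for 20 weeks. The group hCA-Notumor ate 3% calcium and had no tumors, the group hCA-Tumor ate the same diet and had tumors, and the group labelled DMH ate 1.24% calcium, with its tumor status labelled only as control. No group without the carcinogen was analysed here, and the labels give no age or sex. Each group had 3 arrays, and the labels leave unsaid whether they were 3 different animals. The p-values therefore rest on the spread between arrays alone, and that spread may be technical.

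Of 41174 probes, 61.1 to 73.7% per array stood well above background, and 0 spots were saturated. With 3 arrays per group the precision is limited. A level is the log2 processed signal minus that of the array's 75th percentile, and a difference is between 2 such levels, so that 1 unit is 2-fold. A gene is called where limma's adjusted p, taken over 21083 features, is below 0.05. For a dimmer probe of a gene, the adjusted p came from the same model fitted to all 27192 kept probes. The 3 arrays of hCA-Notumor and DMH replicate 1 shared slide 1, hCA-Tumor replicates 1 and 2 and DMH replicates 2 and 3 shared slide 2, and hCA-Tumor replicate 3 lay on a slide of its own. That array stood apart. Across features its Pearson's r with the other hCA-Tumor arrays was 0.967, while those arrays reached 0.979 to 0.982 with the DMH arrays of their slide. The DMH arrays also split by slide. DMH replicate 1 was at 0.984 and 0.983 with DMH replicates 2 and 3, which were at 0.994 with each other. With the hCA-Notumor arrays of its slide DMH replicate 1 was at 0.980 to 0.983. The main results for hCA-Tumor are therefore also given without hCA-Tumor replicate 3 and with the slide as a block. For each high calcium group against DMH, the block equals comparing arrays within slides. There hCA-Notumor is compared with DMH replicate 1 alone, and hCA-Tumor replicate 3, alone on its slide, does not enter. No slide held both hCA-Notumor and hCA-Tumor arrays, so group and slide cannot be told apart between them. Their blocked difference is joined only through the DMH arrays.

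The markers of the mucosa were present, with 15 of 15 absorptive colonocyte and 7 of 8 goblet cell markers kept. Other cell types differed between groups, and their part in the results below was not tested. The mean level of 12 kept adipocyte markers of 15 was 0.57 to 0.71 in DMH, -3.16 to -1.73 in hCA-Notumor and -2.03 to -0.47 in hCA-Tumor. Of these markers, Mrap was not well above background on the hCA-Notumor arrays. The mean of 12 smooth muscle markers was 3.40 to 4.14 in DMH, 4.30 to 4.61 in hCA-Notumor and 4.72 to 5.06 in hCA-Tumor. The mean of the absorptive colonocyte markers was 3.83 to 4.04 in DMH, 3.93 to 4.37 in hCA-Notumor and 3.11 to 3.73 in hCA-Tumor. The mean of 8 kept myeloid markers of 9 was -0.0042 to 0.055 in DMH, -1.30 to -1.16 in hCA-Notumor and -1.06 to -0.91 in hCA-Tumor. In such bulk samples fewer cells of a type and less RNA per cell cannot be told apart.

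In hCA-Tumor 7 of the 9 enzymes of the mitochondrial spiral fell against DMH, and in hCA-Notumor 1 did. Of the 35 genes, 15 fell and 2 rose in hCA-Tumor against DMH, where 15.9% of all features fell and 21% rose (37% called). In hCA-Notumor against DMH, 4 fell and 3 rose, where 17.3% of all features fell and 18.4% rose (35.7% called). Between the high calcium groups, 13 were higher and 3 lower in hCA-Notumor, where 20.6% of all features were higher and 27% lower (47.6% called). When the high calcium groups were averaged and set against DMH, 12 fell and 3 rose, which is 15 calls where 31.6% of all features were called, 13.8% falling and 17.9% rising. All of these comparisons against DMH share the 3 DMH arrays.

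That all arrays of a group lay on 1 side of another group's was common in these data. In hCA-Tumor against DMH it held for 18 genes below and 6 above DMH, where it held for 21.2% and 28.1% of all features. In hCA-Notumor against DMH it held for 8 below and 7 above, where it held for 24.1% and 33.7%. For hCA-Notumor against hCA-Tumor it held for 15 above and 6 below, where it held for 25.8% and 33.1%.

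The median difference of the 35 genes was -0.18 in hCA-Tumor against DMH, beside 0.08 over all features. It was -0.07 in hCA-Notumor against DMH, beside 0.07, and 0.09 between the high calcium groups, beside 0.00. With the slide as a block these medians were -0.24, -0.12 and 0.04, and with the mean of each gene's probes they were -0.29, -0.07 and 0.27. Without hCA-Tumor replicate 3, 16 genes fell and 2 rose in hCA-Tumor against DMH, where 3817 of 21083 features fell and 4235 rose. With the slide as a block 18 fell and 2 rose, where 3924 features fell and 5043 rose. The block lost Cpt1a and gained Cpt2, Decr1, Etfa and Etfdh. In hCA-Notumor against hCA-Tumor 14 were higher and 2 lower without hCA-Tumor replicate 3, where 6536 features were higher and 5727 lower. With the block 8 were higher and 2 lower, where 3031 features were higher and 3288 lower. In hCA-Notumor against DMH 4 fell and 2 rose with the block, where 2662 features fell and 2971 rose. The fall of Etfdh and the rise of Eci1 were then lost and a fall of Acaa1a was gained.

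Some of these calls held under every one of 21 other settings of the processing. Against DMH these were Acadl, Cd36 and Slc5a8 of the 7 calls in hCA-Notumor, and Acads, Cd36, Echs1, Ehhadh, Hadh, Hadha, Hadhb and Slc25a20 of the 17 in hCA-Tumor. The 6 between the high calcium groups were Acads, Ehhadh, Hadh, Hadha, Slc25a20 and Slc5a8, of 16 calls. In the whole-series table, which is scaled differently, rises were 39.5% of all calls in hCA-Tumor against DMH where they were 56.9% here, and 29.3% in hCA-Notumor where they were 51.5% here. There, 10 of the 35 genes fell and 0 rose in hCA-Tumor, where 1453 of 18458 features fell and 950 rose. In hCA-Notumor 9 fell and 1 rose, where 2362 features fell and 977 rose.

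**Figure D1:**
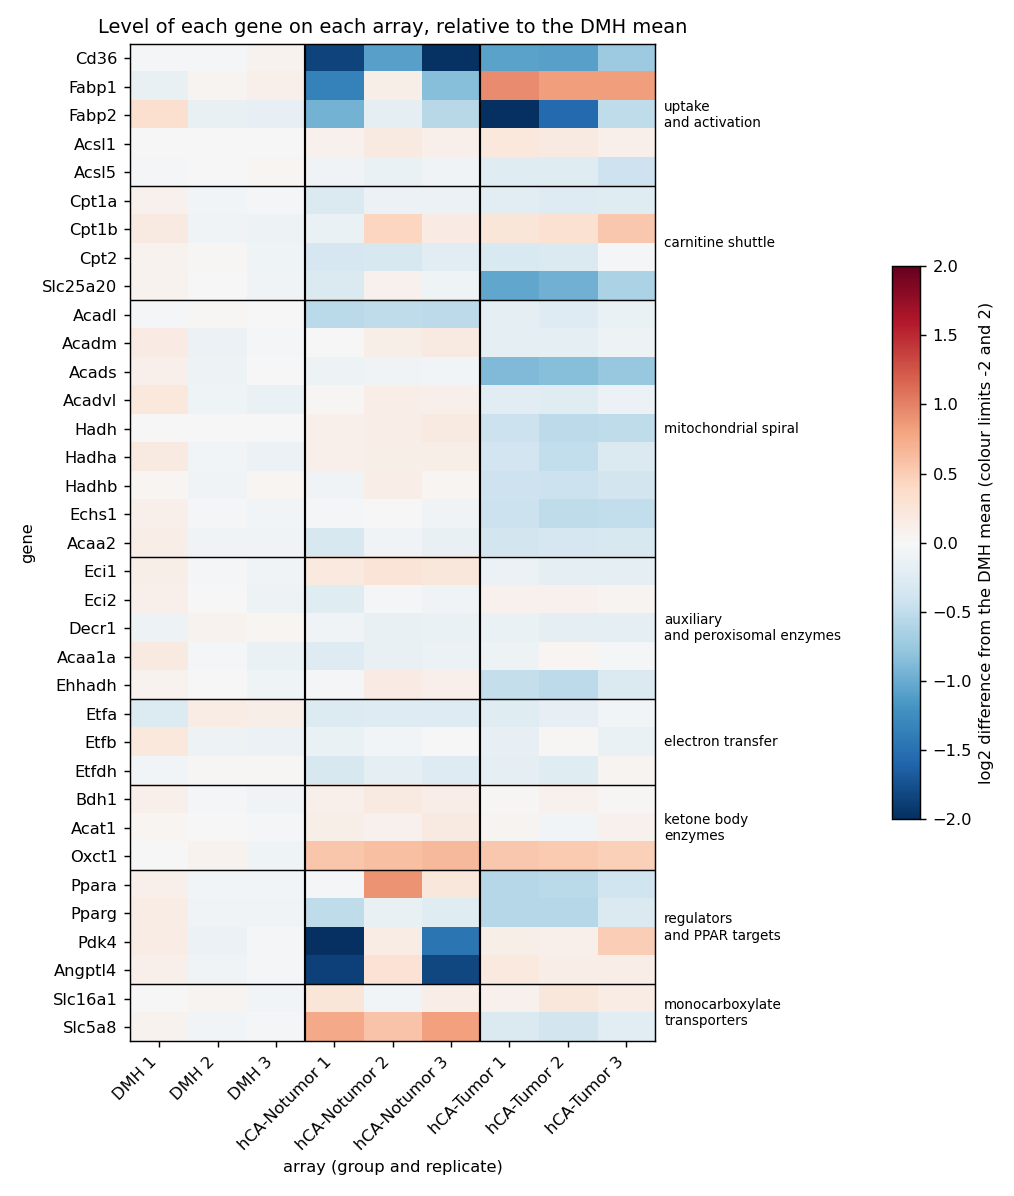
Level of each of the 35 genes (rows, by role) on each of the 9 arrays (columns), as the log2 difference from the gene's mean over the 3 DMH arrays; red is higher and blue lower, and the colours end at -2 and 2. The block of mitochondrial spiral enzymes is blue on the hCA-Tumor arrays, and Pdk4 and Angptl4 are blue on only 2 of the 3 hCA-Notumor arrays.

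Of the 3 genes of fatty acid uptake, Cd36 fell in both high calcium groups, Fabp2 fell in hCA-Tumor and Fabp1 was not called against DMH. Cd36, a membrane receptor that takes up long-chain fatty acids in adipocytes, muscle, endothelium, macrophages and gut epithelium, was at -0.65, -0.62 and -0.54 in DMH, at -1.67, -1.70 and -1.33 in hCA-Tumor and at -2.45, -1.70 and -2.59 in hCA-Notumor. Neither high calcium group overlapped DMH. Cd36 fell by 1.64 ± 0.23 (SE, n = 3 arrays per group; 3.12-fold, adjusted p = 0.00145) in hCA-Notumor and by 0.96 ± 0.23 (1.95-fold, adjusted p = 0.0137) in hCA-Tumor. With the slide as a block these were -1.60 (adjusted p = 0.019) and -1.10 (adjusted p = 0.027). Of the 12 kept adipocyte markers, 9 were called lower in hCA-Notumor and 8 in hCA-Tumor, and 0 higher. Over all features 17.3% and 15.9% were called lower. One of these markers, Fabp4, the adipocyte fatty acid binding protein, differed by -1.80 and -1.05. Lpl, the lipase that frees fatty acids from lipoproteins, is not in that marker list and differed by -2.96 and -2.54. The myeloid markers were also lower in both groups, with 5 of 8 called lower in hCA-Notumor and 7 in hCA-Tumor. Of all features, 17.3% and 15.9% were called lower there. The part of the adipocyte and myeloid markers in the fall of Cd36 was not tested.

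Fabp2, the intestinal fatty acid binding protein, was at 7.11, 6.64 and 6.62 in DMH, at 5.85, 6.60 and 6.23 in hCA-Notumor and at 4.79, 5.24 and 6.28 in hCA-Tumor. Every high calcium array was below every DMH array, and the hCA-Tumor arrays were far apart. The fall in hCA-Tumor was 1.35 ± 0.38 (adjusted p = 0.0279), without hCA-Tumor replicate 3 it was 1.78 (adjusted p = 0.0031), and with the slide as a block it was 1.62 (adjusted p = 0.0059). The call was lost without any 1 of the DMH arrays or of the other hCA-Tumor arrays. In hCA-Notumor the difference was -0.56 ± 0.38 (adjusted p = 0.279). A dimmer probe of Fabp2 gave -1.29 in hCA-Notumor (adjusted p = 0.055) and -1.23 in hCA-Tumor (adjusted p = 0.063), neither called. In the whole-series table Fabp2 was called lower in both groups, at -0.75 in hCA-Notumor (adjusted p = 0.046) and -1.48 in hCA-Tumor (adjusted p = 0.0014).

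Fabp1, the liver-type fatty acid binding protein and a textbook PPAR target, was dim throughout, at -3.96, -3.75 and -3.71 in DMH, at -5.16, -3.69 and -4.66 in hCA-Notumor and at -2.87, -2.97 and -2.98 in hCA-Tumor. The hCA-Tumor arrays were the highest and the hCA-Notumor arrays overlapped DMH. It was 1.57 ± 0.33 lower in hCA-Notumor than in hCA-Tumor (2.96-fold, adjusted p = 0.00616), but with the slide as a block the difference was -1.36 (adjusted p = 0.18). Against DMH it was not called in either group, at 0.87 ± 0.33 in hCA-Tumor (adjusted p = 0.0739) and -0.70 ± 0.33 in hCA-Notumor (adjusted p = 0.136). Without hCA-Notumor replicate 2, Fabp1 was called in both, at 0.87 (adjusted p = 0.0045) and -1.10 (adjusted p = 0.0036), and array weights also gave both calls. The rise in hCA-Tumor was also called without hCA-Notumor replicate 1 and with only the compared groups fitted, and the fall in hCA-Notumor in the whole-series table. Fabp1 is shown because it alone among the 30 genes with a promoter entry in the RefSeq table (GRCm38.p6) matched a direct repeat of AGGNCA, 2 copies with 1 base between them, the kind of element that PPAR and RXR bind together. The match, in capitals and on the reverse strand, begins 67 bases before the start of transcription, in the 250 bases before it (chr6:71199629-71199878, plus strand).

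Fabp1: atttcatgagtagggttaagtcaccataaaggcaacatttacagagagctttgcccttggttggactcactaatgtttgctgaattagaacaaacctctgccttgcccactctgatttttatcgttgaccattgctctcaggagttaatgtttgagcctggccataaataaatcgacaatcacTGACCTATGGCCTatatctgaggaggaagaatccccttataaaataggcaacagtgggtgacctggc

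Both strands of the 250 bases before each start were searched, and 0.338% of the 32851 windows in the table held this repeat. The shorter core AGGTCA, which the Fabp1 match contains, was in 14% of windows and in those of 7 of the 30 genes, namely Acadm, Acadvl, Cd36, Cpt1a, Echs1, Fabp1 and Pparg. A match describes the letters only.

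Of the acyl-CoA synthetases, Acsl5, the form known from intestinal epithelium, was at 2.06, 2.09 and 2.13 in DMH and at 1.85, 1.85 and 1.69 in hCA-Tumor, with hCA-Notumor between them at 2.02, 1.96 and 2.02. It fell by 0.30 ± 0.06 (1.23-fold, adjusted p = 0.00601) in hCA-Tumor. Acsl1, a broadly expressed synthetase, differed by 0.16 ± 0.05 in hCA-Tumor (1.12-fold, adjusted p = 0.0323) with its brightest probe. Its 2 dimmer probes gave -0.36 and -0.26 there, and 0.53 and 0.32 in hCA-Notumor, all of them called. No direction is therefore given for Acsl1.

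In the carnitine shuttle the carrier fell furthest in hCA-Tumor. Slc25a20, which exchanges acylcarnitine for carnitine across the inner mitochondrial membrane, was at 1.86, 1.79 and 1.71 in DMH, at 1.49, 1.87 and 1.70 in hCA-Notumor and at 0.75, 0.82 and 1.15 in hCA-Tumor. All hCA-Tumor arrays were below all others, which overlapped each other. It fell by 0.88 ± 0.13 (1.84-fold, adjusted p = 0.00201) in hCA-Tumor, by 0.97 with the slide as a block and by 1.00 without hCA-Tumor replicate 3. Against DMH in hCA-Notumor the difference was -0.10 ± 0.13 (adjusted p = 0.565), and between the high calcium groups it was 0.78 ± 0.13 (adjusted p = 0.0023).

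The transferases on either side of the carrier differed less. Cpt1a, the liver-type outer membrane transferase that sets the pace of entry, differed from DMH by -0.23 ± 0.07 in hCA-Tumor (1.17-fold, adjusted p = 0.0282) and by -0.18 ± 0.07 in hCA-Notumor (adjusted p = 0.0719). The former call was lost with the slide as a block (-0.19, adjusted p = 0.094) and without hCA-Tumor replicate 3 (-0.23, adjusted p = 0.056). The dimmer probe of Cpt1a gave -0.56 in hCA-Tumor (adjusted p = 0.00054) and -0.05 in hCA-Notumor (adjusted p = 0.5). Cpt2, its inner membrane partner, fell by 0.29 ± 0.09 in hCA-Notumor (adjusted p = 0.0372), and its difference in hCA-Tumor was -0.21 ± 0.09 (adjusted p = 0.1). Without hCA-Tumor replicate 3 the latter was -0.30 (adjusted p = 0.016) and with the slide as a block -0.26 (adjusted p = 0.027), and the call in hCA-Notumor was lost without any 1 of the arrays of that comparison. Cpt1b, the muscle form, was called in no comparison, with 0.37 ± 0.15 in hCA-Tumor against DMH (adjusted p = 0.105).

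Within the mitochondrial spiral, 7 of 9 enzymes fell in hCA-Tumor against DMH and 0 rose, with a median of -0.39. In hCA-Notumor 1 of the 9 fell and 0 rose, with a median of 0.04 that turned to -0.12 with the slide as a block. Between the high calcium groups 7 were higher and 1 lower in hCA-Notumor, with a median of 0.44, or 4 higher and 1 lower with the slide as a block, with a median of 0.29.

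Acads, the short-chain acyl-CoA dehydrogenase that acts on butyryl-CoA, changed most. It was at 2.28, 2.08 and 2.17 in DMH, at 2.07, 2.11 and 2.13 in hCA-Notumor and at 1.29, 1.33 and 1.42 in hCA-Tumor. The hCA-Tumor arrays were clear of all others, and the hCA-Notumor arrays overlapped DMH. The fall in hCA-Tumor was 0.83 ± 0.06 (1.78-fold, adjusted p = 0.000196), with -0.81 under the slide block and -0.87 without hCA-Tumor replicate 3. The difference between the high calcium groups was 0.76 ± 0.06 (adjusted p = 0.000125), or 0.64 with the slide as a block (adjusted p = 0.0055). The promoter of Acads, the gene with this fall, is shown with its 1 GC box in capitals (chr5:115119347-115119596, minus strand, GRCm38.p6, the 250 bases before the start).

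Acads: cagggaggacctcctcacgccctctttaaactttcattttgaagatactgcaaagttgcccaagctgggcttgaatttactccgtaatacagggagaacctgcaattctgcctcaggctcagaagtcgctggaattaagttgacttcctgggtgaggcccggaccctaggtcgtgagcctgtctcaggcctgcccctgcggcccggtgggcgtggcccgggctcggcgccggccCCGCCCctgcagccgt

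Acadl, the long-chain acyl-CoA dehydrogenase, followed another pattern from Acads. It was at 2.25, 2.30 and 2.28 in DMH, at 2.08, 2.02 and 2.13 in hCA-Tumor and at 1.74, 1.77 and 1.75 in hCA-Notumor, and none of the 3 groups overlapped. It fell by 0.52 ± 0.05 (1.44-fold, adjusted p = 0.000186) in hCA-Notumor and by 0.20 ± 0.05 (adjusted p = 0.0124) in hCA-Tumor. It was 0.33 ± 0.05 lower in hCA-Notumor than in hCA-Tumor (adjusted p = 0.00102), and 0.26 lower with the slide as a block (adjusted p = 0.043). Acadl alone among the 9 enzymes of the spiral was called lower in hCA-Notumor than in hCA-Tumor.

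The medium-chain and very-long-chain dehydrogenases, Acadm and Acadvl, were not called against DMH in either group. In hCA-Tumor they were at -0.16 ± 0.08 (adjusted p = 0.185) and -0.18 ± 0.09 (adjusted p = 0.167) from DMH. Their calls between the high calcium groups, 0.26 ± 0.08 and 0.27 ± 0.09 higher in hCA-Notumor, were lost with the slide as a block, where the differences were 0.04 (adjusted p = 0.81) and -0.01 (adjusted p = 0.95).

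The hydratase, dehydrogenase and thiolase steps fell together in hCA-Tumor. Hadh, the hydroxyacyl-CoA dehydrogenase for short and medium chains, was at 3.71, 3.72 and 3.72 in DMH, at 3.82, 3.84 and 3.89 in hCA-Notumor and at 3.28, 3.20 and 3.20 in hCA-Tumor. No 2 groups overlapped, and hCA-Notumor was the highest. It fell by 0.49 ± 0.04 (1.40-fold, adjusted p = 0.000318) in hCA-Tumor, and in hCA-Notumor it differed by 0.13 ± 0.04, just short of a call (adjusted p = 0.0504). Echs1, the short-chain enoyl-CoA hydratase, fell by 0.48 ± 0.06 (1.39-fold, adjusted p = 0.000743) in hCA-Tumor. Acaa2, the mitochondrial thiolase, fell by 0.34 ± 0.08 (adjusted p = 0.0156), a call lost without hCA-Tumor replicate 1. For Hadh, Echs1 and Acaa2 the slide block gave -0.48, -0.42 and -0.28 in hCA-Tumor, and leaving out hCA-Tumor replicate 3 gave -0.48, -0.47 and -0.35, all called.

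Hadha and Hadhb encode the subunits of the trifunctional protein, which carries out the last 3 steps on long chains. Hadha was at 2.00, 1.78 and 1.71 in DMH, at 1.93, 1.96 and 1.95 in hCA-Notumor and at 1.44, 1.34 and 1.55 in hCA-Tumor. Hadhb was at 3.97, 3.86 and 3.96 in DMH, at 3.86, 4.07 and 3.97 in hCA-Notumor and at 3.52, 3.51 and 3.56 in hCA-Tumor. For both genes the hCA-Tumor arrays were below all others. They fell by 0.39 ± 0.09 (1.31-fold, adjusted p = 0.0112) and 0.40 ± 0.06 (1.32-fold, adjusted p = 0.00261). With the slide as a block these were -0.36 and -0.40, and without hCA-Tumor replicate 3 they were -0.44 and -0.42.

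The 2 genes lie head to head and are read away from each other, and the stretch between them is shown because they moved together. In the RefSeq table their starts are 272 bases apart, and the 250 bases before the Hadhb start (chr5:30155003-30155252, plus strand, GRCm38.p6) fall within that stretch. The capitals mark its 2 GC boxes, GGGCGG, the core letters bound by Sp1-type factors.

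Hadhb: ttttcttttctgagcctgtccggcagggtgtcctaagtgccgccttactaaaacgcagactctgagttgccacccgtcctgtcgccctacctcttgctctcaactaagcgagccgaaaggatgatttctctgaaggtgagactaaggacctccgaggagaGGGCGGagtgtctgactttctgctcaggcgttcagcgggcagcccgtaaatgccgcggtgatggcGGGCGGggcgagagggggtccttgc

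On either strand, GGGCGG was in the windows of 19 of the 30 genes with an entry and in 32.7% of all windows. The promoters of Acaa2, Acat1, Angptl4, Cpt1b and Decr1 were not analysed here.

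Of the auxiliary and peroxisomal enzymes, Ehhadh alone was called in hCA-Tumor against DMH with the brightest probes and without the slide block. Ehhadh, the peroxisomal bifunctional enzyme, was at 0.79, 0.72 and 0.63 in DMH, at 0.70, 0.87 and 0.81 in hCA-Notumor and at 0.24, 0.19 and 0.42 in hCA-Tumor, whose arrays were below all others. It fell by 0.43 ± 0.08 (1.35-fold, adjusted p = 0.00572) in hCA-Tumor and by 0.46 with the slide as a block. Eci1, a mitochondrial isomerase that prepares unsaturated chains, was 0.23 ± 0.06 higher in hCA-Notumor than in DMH (adjusted p = 0.0228), but 0.11 with the slide as a block (adjusted p = 0.22). Eci2, a related isomerase, Decr1, the mitochondrial dienoyl-CoA reductase, and Acaa1a, a peroxisomal thiolase, were read from their brightest probes. Their differences from DMH lay between -0.18 and 0.08, and they were not called in any comparison in the fit without the slide block. With the block, Acaa1a was lower in hCA-Notumor than in DMH (-0.36, adjusted p = 0.036) and than in hCA-Tumor (-0.42, adjusted p = 0.049). Decr1 was then lower in hCA-Tumor than in DMH (-0.20, adjusted p = 0.023). Without the block, dimmer probes of both genes were called lower in hCA-Tumor than in DMH. Decr1 was at -0.56 (adjusted p = 0.00047) and Acaa1a at -0.36 (adjusted p = 0.0104) and -0.53 (adjusted p = 0.0045).

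The calls of the electron transfer genes changed with the slide block. Etfdh, the oxidoreductase that hands electrons to ubiquinone, differed by -0.26 ± 0.08 in hCA-Notumor against DMH (adjusted p = 0.0486), a call that was lost with the slide as a block (-0.21, adjusted p = 0.068). Etfa, the alpha subunit of the flavoprotein, was at 2.90 on DMH replicate 1 and at 3.33 and 3.30 on the other DMH arrays, so the DMH arrays split by slide. The hCA-Notumor arrays, on the slide of DMH replicate 1, were at 2.90, 2.92 and 2.92. Without the block Etfa was called in no comparison. With the block it was lower in hCA-Tumor than in DMH (-0.34, adjusted p = 0.0046) and 0.35 higher in hCA-Notumor than in hCA-Tumor (adjusted p = 0.023), where it was at -0.11 without the block. Etfdh was likewise lower in hCA-Tumor than in DMH with the block (-0.24, adjusted p = 0.02) and without hCA-Tumor replicate 3 (-0.22, adjusted p = 0.025). Without the block its dimmer probe gave -0.45 in hCA-Tumor (adjusted p = 0.0013) and 0.12 in hCA-Notumor (adjusted p = 0.16). Etfb, the beta subunit, differed from DMH by -0.07 ± 0.10 and -0.09 ± 0.10.

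**Figure D2:**
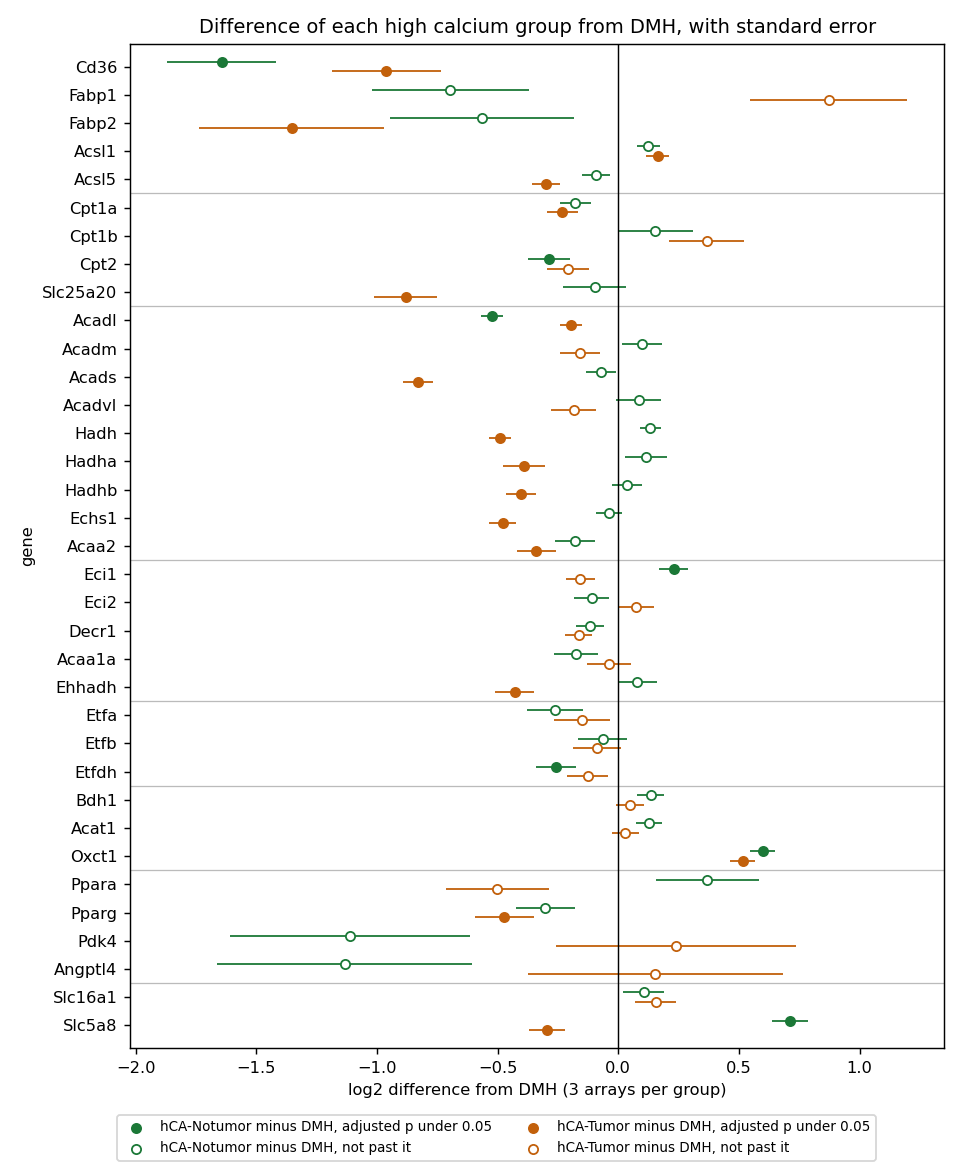
Difference of hCA-Notumor (green) and hCA-Tumor (orange) from DMH for each gene, in log2 units on the horizontal axis, with the standard error from limma as bars; filled points are called. The orange points of the spiral lie left of 0, down to -0.83 for Acads, while most green points there are open and near 0.

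The ketone body enzymes gave 1 clear change. Oxct1, the mitochondrial transferase that activates acetoacetate so that ketone bodies can be burned, was at 4.81, 4.87 and 4.72 in DMH, at 5.36, 5.40 and 5.45 in hCA-Notumor and at 5.34, 5.33 and 5.29 in hCA-Tumor. All 6 high calcium arrays were above all DMH arrays. Oxct1 rose by 0.60 ± 0.05 (1.51-fold, adjusted p = 0.000195) in hCA-Notumor and by 0.52 ± 0.05 (1.43-fold, adjusted p = 0.000488) in hCA-Tumor, and the slide block gave 0.59 and 0.54. Its 2 dimmer probes gave larger rises in hCA-Notumor, of 0.96 and 0.78, and smaller differences in hCA-Tumor, of 0.18 (adjusted p = 0.065) and 0.31 (adjusted p = 0.0057). Between the high calcium groups these probes differed by 0.78 and 0.46, where the brightest gave 0.08. In the values of the whole-series table, which are centred on each array's median, the differences were 0.41 (adjusted p = 0.102) and 0.39 (adjusted p = 0.143), beside medians of -0.14 and -0.06 over all features.

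Bdh1, which interconverts acetoacetate and hydroxybutyrate, differed from DMH by 0.13 ± 0.06 and 0.05 ± 0.06 in hCA-Notumor and hCA-Tumor. Acat1, the mitochondrial acetoacetyl-CoA thiolase, differed by 0.13 ± 0.05 and 0.03 ± 0.05, and neither gene was called in any comparison with its brightest probe. The dimmer probe of Bdh1 gave -0.36 in hCA-Tumor (adjusted p = 0.0044) and 0.16 in hCA-Notumor (adjusted p = 0.093).

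Among the receptors and their targets, Pparg fell in hCA-Tumor and the others varied between arrays of 1 group. Pparg, the PPAR gamma receptor of adipocytes and of colonic epithelium, was at 3.84, 3.62 and 3.63 in DMH, at 3.18, 3.54 and 3.46 in hCA-Notumor and at 3.13, 3.13 and 3.41 in hCA-Tumor. Every high calcium array was below every DMH array. It fell by 0.47 ± 0.12 in hCA-Tumor (1.39-fold, adjusted p = 0.0205), and its difference in hCA-Notumor was -0.30 ± 0.12 (adjusted p = 0.0952). The call in hCA-Tumor was lost without DMH replicate 1 or without hCA-Tumor replicate 1 or 2. Under the slide block the difference was -0.49 (adjusted p = 0.02). The adipocyte markers were also lower in both groups. Their median difference from DMH was -3.25 in hCA-Notumor and -2.50 in hCA-Tumor, so the larger fall was not in the same group as for Pparg. The part of these markers in the fall of Pparg was not tested.

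Ppara, the PPAR alpha receptor, was dim, at -1.65, -1.81 and -1.80 in DMH, at -1.77, -0.85 and -1.52 in hCA-Notumor and at -2.33, -2.28 and -2.15 in hCA-Tumor. The hCA-Tumor arrays were below all others. The difference between the high calcium groups was 0.87 ± 0.21 (adjusted p = 0.0124), but with the slide as a block it was 0.76 (adjusted p = 0.23), and against DMH neither group was called. Without hCA-Notumor replicate 2 the difference of hCA-Tumor from DMH, -0.50, was called (adjusted p = 0.0073).

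Pdk4, the kinase that turns off pyruvate dehydrogenase when fat is burned, was at -2.22, -0.03 and -1.65 in hCA-Notumor, between -0.31 and -0.04 in DMH and between -0.09 and 0.31 in hCA-Tumor. Angptl4, a secreted inhibitor of lipoprotein lipase, was at -1.83, 0.34 and -1.77 in hCA-Notumor, between -0.02 and 0.15 in DMH and between 0.17 and 0.24 in hCA-Tumor. For both genes hCA-Notumor replicate 2 was at or near the other groups, while replicates 1 and 3 were lower than all other arrays. Neither gene was called against DMH, at -1.11 ± 0.50 (adjusted p = 0.12) and -1.13 ± 0.53 (adjusted p = 0.134). Without hCA-Notumor replicate 2 both were called in hCA-Notumor, Pdk4 at -1.75 (adjusted p = 0.0019) and Angptl4 at -1.85 (adjusted p = 4e-05), and both were also called with array weights and in the whole-series table. Over all 21083 features, hCA-Notumor replicate 2 was at least 1 unit above both other arrays of its group for 181 features (0.859%), against 29 and 19 for replicates 1 and 3. Vnn1 and Klf15 were among those 181, the adipocyte markers had their highest mean of the group on that array, and the part of these in the spread of Pdk4 and Angptl4 was not tested.

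**Figure D3:**
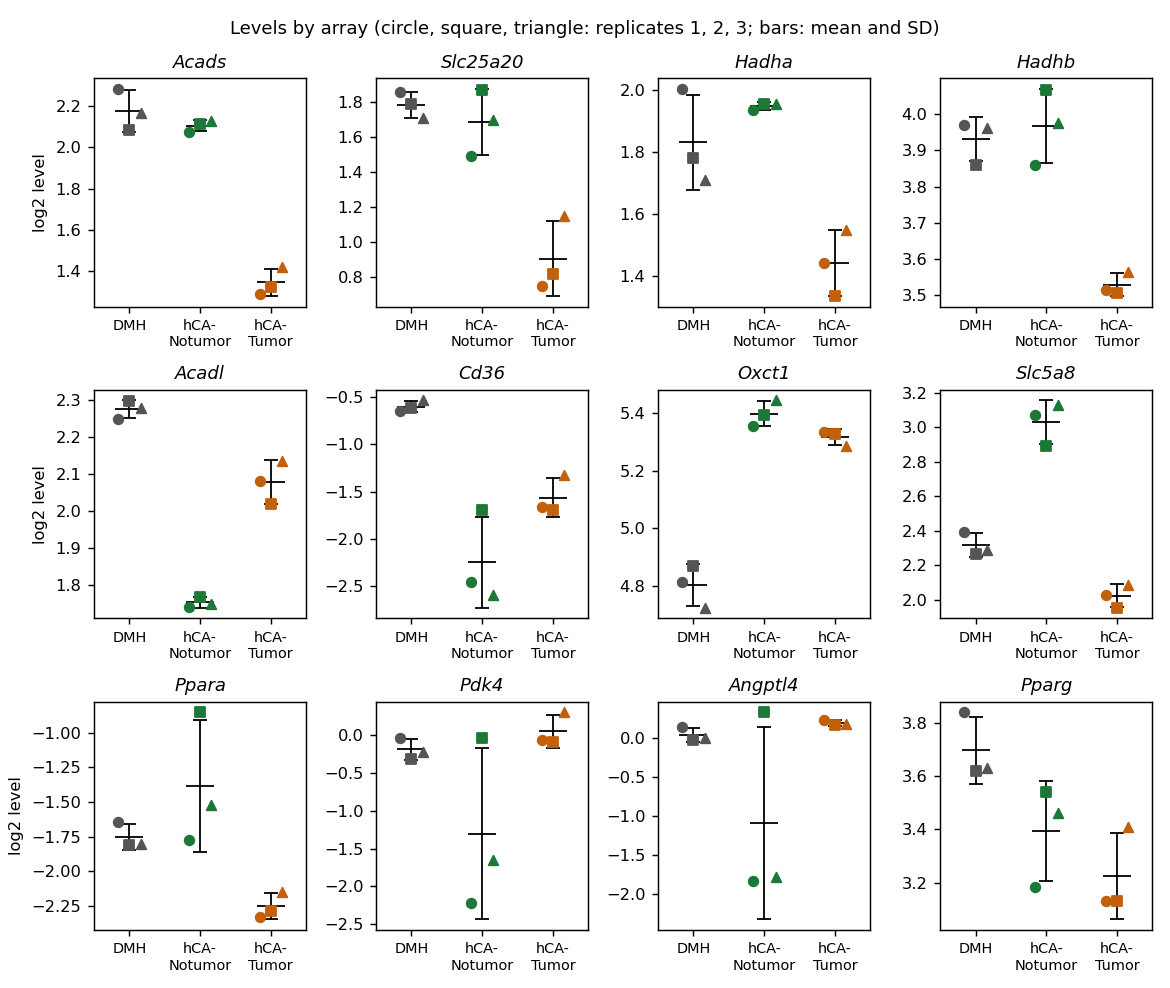
Log2 level of 12 genes on each array by group, each panel with its own vertical axis that does not start at 0; symbols are replicates 1 to 3 and bars are the mean and SD of 3 arrays. Acads, Slc25a20, Hadha and Hadhb are low on all hCA-Tumor arrays, Oxct1 is high in both high calcium groups, and replicate 2 of hCA-Notumor stands above its group for Pdk4 and Angptl4.

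The monocarboxylate transporters split when read from their brightest probes. Slc5a8, the sodium-coupled transporter that brings butyrate into the colonocyte, was at 2.40, 2.27 and 2.29 in DMH, at 3.07, 2.89 and 3.13 in hCA-Notumor and at 2.03, 1.95 and 2.09 in hCA-Tumor. No groups overlapped, with hCA-Notumor the highest and hCA-Tumor the lowest. Slc5a8 rose by 0.71 ± 0.08 (1.64-fold, adjusted p = 0.000453) in hCA-Notumor and fell by 0.29 ± 0.08 (1.23-fold, adjusted p = 0.0197) in hCA-Tumor. The slide block gave 0.63 (adjusted p = 0.0087) and -0.29 (adjusted p = 0.044), and the fall was lost without DMH replicate 1, without hCA-Tumor replicate 1 or 2, under normexp background correction, without the filter on dim probes and in the whole-series table. Against hCA-Tumor the hCA-Notumor arrays were higher by 1.01 ± 0.08 (2.01-fold, adjusted p = 7.92e-05), or 0.92 with the slide as a block (adjusted p = 0.0079). Slc16a1, the proton-coupled transporter MCT1, was called in no comparison with its brightest probe, with 0.11 ± 0.08 and 0.16 ± 0.08 from DMH. Its dimmest probe was called in opposite directions, at 0.62 in hCA-Notumor (adjusted p = 0.0472) and -0.89 in hCA-Tumor (adjusted p = 0.0114).

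The promoter of Slc5a8 is shown because, with the brightest probes, no other of the 35 genes was called in opposite directions in the 2 high calcium groups. Its 3 GC boxes, here in the letters of the opposite strand, are in capitals in the 250 bases before the start (chr10:88885742-88885991, plus strand, GRCm38.p6).

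Slc5a8: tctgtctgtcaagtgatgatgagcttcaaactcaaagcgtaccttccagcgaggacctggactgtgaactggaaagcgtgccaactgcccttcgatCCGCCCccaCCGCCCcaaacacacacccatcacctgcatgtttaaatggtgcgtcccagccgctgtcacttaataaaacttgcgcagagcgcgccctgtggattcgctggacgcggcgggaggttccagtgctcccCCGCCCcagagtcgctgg

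Probes of 1 gene often disagreed on the difference between the high calcium groups. Over 4634 genes with several kept probes, the dimmest probe gave a difference 0.30 higher than the brightest in the median, at 0.06 where the probes were within 1 unit of brightness and 0.61 where they were over 4 units apart. In hCA-Tumor against DMH the dimmest probe was 0.16 lower in the median, and in hCA-Notumor against DMH 0.13 higher. Of the 10 genes described here with several kept probes, the dimmest gave the higher difference in 8. None of the 10 was called between the high calcium groups with its brightest probe, and all 16 calls were among the 25 genes with 1 kept probe.

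For some of those 10 genes a dimmer probe gave a difference that the brightest probe did not. For Cpt1a the dimmer probe gave 0.50 against 0.05, for Decr1 0.48 against 0.05 and for Etfdh 0.57 against -0.13. For Slc16a1 the dimmest probe gave 1.52 against -0.05. Other genes did otherwise, with -0.06 against 0.79 for Fabp2 and -0.25 against -0.21 for Cpt1b. Which probe is nearer to the transcript's own difference was not tested. Over all named genes with 1 kept probe, 21.8% were higher and 24.5% lower in hCA-Notumor than in hCA-Tumor. The part of probe brightness in the calls of the 35 genes was not tested.

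**Figure D4:**
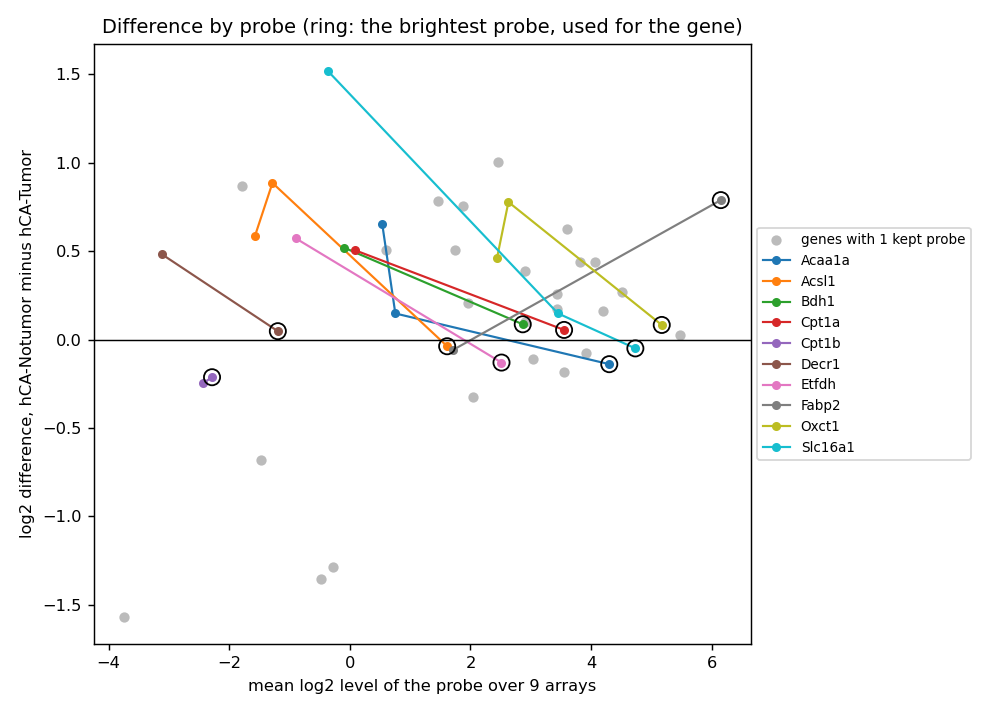
Log2 difference between hCA-Notumor and hCA-Tumor for each kept probe, against the probe's mean log2 level over 9 arrays; lines join the probes of 1 gene, rings mark the probe used, and grey points are the 25 genes with 1 kept probe. Ringed probes lie between -0.21 and 0.79, and most lines rise to the left.

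Other genes of the route, from lists chosen with earlier results known, moved in part with these. Their counts stand beside the 15.9% of all features that fell and 21% that rose in hCA-Tumor, and the 17.3% and 18.4% in hCA-Notumor. Of 20 genes of the citric acid cycle and mitochondrial upkeep, 14 fell and 1 rose in hCA-Tumor against DMH, with a median of -0.31. In hCA-Notumor 8 rose and 0 fell, with a median of 0.12. Under the slide block 4 rose and 0 fell, where 2971 of 21083 features rose and 2662 fell. Between the high calcium groups 18 were higher and 0 lower in hCA-Notumor, where 20.6% of all features were higher and 27% lower. With the block 11 were higher and 0 lower, where 3031 features were higher and 3288 lower. Without the block, the 10 genes of this list with several kept probes were all called higher in that comparison. So were 8 of the 10 with 1 kept probe. Over all named genes, 22.8% with several kept probes and 21.8% with 1 were called higher. Ogdh, a subunit of the oxoglutarate dehydrogenase complex, rose by 0.41 ± 0.08 in hCA-Notumor and fell by 0.62 ± 0.08 in hCA-Tumor.

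Of 24 further mitochondrial fatty acid and ketone genes, 8 fell and 2 rose in hCA-Tumor against DMH, and 4 fell and 6 rose in hCA-Notumor. Pcca, a subunit of propionyl-CoA carboxylase, rose by 0.45 ± 0.07 in hCA-Notumor and fell by 0.69 ± 0.07 in hCA-Tumor. Of 16 peroxisomal genes, 6 fell and 1 rose in hCA-Tumor, and 4 fell and 3 rose in hCA-Notumor. Decr2, the peroxisomal dienoyl-CoA reductase, rose by 0.77 ± 0.07 in hCA-Notumor and fell by 0.26 ± 0.07 in hCA-Tumor.

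Of 19 further genes of uptake and activation, 8 fell and 5 rose in hCA-Notumor and 5 fell and 3 rose in hCA-Tumor. Of 24 PPAR coregulators and targets, 6 fell and 6 rose in hCA-Notumor and 7 fell and 5 rose in hCA-Tumor, so this list had no common direction. Within it, Ppargc1a, the coactivator PGC-1 alpha that drives mitochondrial gene expression, rose by 1.27 ± 0.06 in hCA-Notumor and by 0.43 ± 0.06 in hCA-Tumor. Acot1, a cytosolic acyl-CoA thioesterase, fell by 1.11 ± 0.07 and 0.60 ± 0.07.

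Of 11 further genes of monocarboxylate and butyrate transport, 4 fell and 1 rose in hCA-Notumor and 3 fell and 2 rose in hCA-Tumor, with the rises near or below the share over all features. Hcar2, a receptor for butyrate and hydroxybutyrate, fell by 1.09 ± 0.15 in hCA-Notumor and by 1.44 ± 0.15 in hCA-Tumor, calls that were lost under normexp background correction. Slc16a3, the lactate exporter MCT4, fell by 0.69 ± 0.11 in hCA-Notumor and rose by 0.54 ± 0.11 in hCA-Tumor. Bsg, the partner protein that carries MCT1 and MCT4 to the membrane, fell by 0.59 ± 0.06 in hCA-Tumor.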

How the data were processed

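Per the file headers, the deposited scanner files hold green-channel intensity values from 1-colour Agilent arrays, from which Agilent Feature Extraction 10.5.1.1 had subtracted background, annotated on mm9. A table of the whole series, also deposited, gives log2 values for 23726 probes. Its columns followed the processed signal of their arrays with r of at least 0.99999, with column medians of 2.36 to 2.80, and served as an alternative.

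From the intensities, log2 of the processed signal minus that of the array's 75th percentile (572.5 to 819.2) was taken, without control spots and outlier spots. Probes were named through RefSeq transcripts (assembly GRCm38.p6): 25097 had 1 symbol and 16077 stayed unnamed here. A probe was kept (27192 of 41174) where every array of some group had it well above background, and the brightest kept probe stood for its gene, which gave 21083 features.

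The tests came from limma 3.58.1 under R 4.3.3 (eBayes after lmFit, on all 9 arrays, with Benjamini-Hochberg adjustment over all features within each of 4 contrasts), after the steps were tested on simulated data. The genes, lists and marker lists were chosen with earlier results of these data known. The named genes are the 35 members, and from other lists a choice among the up to 4 largest called differences per list and contrast, with Vnn1 and Klf15 chosen after their values were seen. Some genes of the lists are not reported here.

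Alternatives were the slide and the replicate number as blocks, normexp background correction (offset 50), the whole-series table, quantile normalization, a filter on all 9 arrays or none, averaging the probes of a gene, array weights, a trended and robust fit, only the compared groups, and each array left out in turn. Leaving out DMH replicate 1 and hCA-Tumor replicate 3 together was added after seeing the data.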

Additional observations from a re-analysis of the deposited data

Results flagged for a closer look

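Slc5a8 moved in opposite directions against DMH in the high calcium groups, with no overlap of arrays, and the difference between those groups was tested directly at 1.01 ± 0.08 (limma, adjusted p = 7.92e-05).

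Opposite signs against DMH were also found for 4 further genes of the lists. The direct difference, hCA-Notumor minus hCA-Tumor, was 1.13 for Pcca, 1.03 for Decr2, 1.02 for Ogdh and -1.23 for Slc16a3. The fall of Decr2 in hCA-Tumor was -0.26 (adjusted p = 0.0202) and was lost without DMH replicate 1, without hCA-Tumor replicate 1 or 2, without a filter, with normexp, with only the compared groups and in the whole-series table. In that table the rises of Pcca and Ogdh in hCA-Notumor and of Slc16a3 in hCA-Tumor were not called either.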

How the results depend on the processing

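Of 140 differences (35 genes in 4 contrasts) under up to 21 settings, 2563 kept their side of the threshold, with direction kept where called. A call was lost in 210 and gained in 124, and 8 turned direction with a call before or after the turn. Differences that turned direction without a call before or after it are counted among the 2563. With the slide as a block Acadvl was at -0.0086 and Etfa at 0.35 between the high calcium groups. With the mean of a gene's probes Acsl1 was at -0.15 and Bdh1 at -0.16 in hCA-Tumor against DMH, and Acsl1 at 0.48, Etfdh at 0.22 and Slc16a1 at 0.54 between the high calcium groups. In the whole-series table Acsl1 was at -0.014 for both groups against DMH. The causes were not tested. That table also moved the median of all features from 0.07 to -0.11 for both groups against DMH, and the share of rises among all calls from 56.5% to 30.3%.

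Calls among the 35 genes, 15 for both groups against DMH, were 9 with normexp, 6 without a filter (more features tested), 6 in the whole-series table, 8 with the replicate block and 7 to 17 with 1 array left out. For hCA-Notumor, with 7, they were 21 with array weights, 4 without a filter, 12 without DMH replicate 1 and hCA-Tumor replicate 3, and 4 to 9 with 1 array left out. For hCA-Tumor, with 17, they were 10 in the whole-series table and 11 to 19 with 1 array left out. Between the high calcium groups, with 16, they were 10 with the slide block and 12 to 16 with 1 array left out. The lowest counts came without DMH replicate 2 or 3 (7) and hCA-Tumor replicate 1 or 2 (8) for both groups, without hCA-Tumor replicate 1 for hCA-Tumor, and for hCA-Notumor without DMH replicate 2 or 3 or hCA-Notumor replicate 1 or 3.

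Calls over all features, 6665 for both groups, were 11605 with array weights, 3188 with normexp, 2144 in the whole-series table and 4319 to 7473 with 1 array left out. For hCA-Notumor, 7530 became 13689 with array weights, 3880 with normexp, 3339 in that table and 12612 without DMH replicate 1 and hCA-Tumor replicate 3. For hCA-Tumor, 7795 became 4156 with normexp and 2403 in that table. Between the high calcium groups, 10028 became 6292, 4783 and, with the slide block, 6319. Replicate numbers did not pair the arrays, since deviations of same-numbered arrays from their group means correlated at -0.57 to 0.22, and the replicate block lost 18 calls among the 35 genes and gained 0. For each high calcium group against DMH, comparing within slides gives the same differences as the slide block. The setting with only the compared groups has no value for both groups against DMH, which uses all arrays.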
